A study of Mus musculus with 30 samples.

Results

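Notch ligands, receptors and target genes were followed across mouse brain tumors and normal mouse brain. The set held 10 genes: the ligands Jag1, Jag2, Dll1 and Dll3, the receptors Notch1, Notch2 and Notch3, and the targets Hes1, Hes5 and Hey1. They were taken by symbol from the array's probe-to-gene table, and all 10 were measured among 19938 genes, each by 1 probe set that names no other gene. The values are log2 signal from Affymetrix Mouse Gene 1.0 ST arrays, 1 array per sample. Each step of 1 is a doubling of signal. Because signal includes background, low levels do not measure absence and differences of dim genes are compressed.

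Notch signalling passes between neighbouring cells. A ligand of the Jagged or Delta-like family on one cell binds a Notch receptor on the next, the receptor is cut by an ADAM protease and then by gamma-secretase, and its freed intracellular domain joins the DNA-binding protein RBPJ and a Mastermind coactivator to switch on genes such as those of the Hes and Hey families. In the brain the pathway is known for keeping neural stem and progenitor cells from turning into neurons, since Hes and Hey proteins repress proneural factors.

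The tumors followed injection of a Cre construct into a brain region, and the labels give the promoter of that construct: GFAP, a gene of astrocytes and of neural stem cells, SYN1, a neuron gene, or NES, a gene of neural progenitors. There were 22 tumor arrays, namely 4 GFAP cortex tumors, 4 SYN1 cortex tumors, 7 GFAP hippocampus tumors, 4 NES hippocampus tumors and 3 GFAP tumors of the subventricular zone (SVZ). The 8 normal arrays were 4 of cortex and 4 of hippocampus. Strain, age and further alleles are not given in the labels used here, nor whether each array stands for its own animal. The p-values therefore rest on the spread among these arrays, part of which may be technical. Each tumor group was compared with normal tissue of its own region to ask which Notch genes differed, and tumor groups were compared with each other to ask whether promoter or region went with a difference. GFAP and SYN1 cortex tumors share the same normal cortex arrays, GFAP and NES hippocampus tumors share the same normal hippocampus arrays, and SVZ tumors, which have no labelled normal SVZ, were set against the mean of both normal tissues, so region and tumor cannot be told apart there.

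Some arrays stood apart. GFAP cortex tumor 1 and GFAP hippocampus tumors 5, 6 and 7 had the 4 lowest medians over all genes, 7.42 to 7.52, against 7.57 to 7.99 on the other arrays. The gap is narrow, and these 4 were set apart after the medians were seen. Their interquartile ranges over all genes were also the lowest, 1.878, 2.18, 2.401 and 2.285, against 2.447 to 3.028 on the other arrays. Signal on these 4 arrays thus spanned a narrower range, and its part in the levels of single genes was not tested. Mean correlation with the own group was 0.868 for GFAP cortex tumor 1 and 0.889 for GFAP hippocampus tumor 5. For GFAP hippocampus tumors 6 and 7 it was 0.941 and 0.938, no lower than the 0.93 of tumor 1 of that group. The array labelled normal hippocampus 3 carried signal that the other normal hippocampus arrays lacked: all 20 of the genes raised most in SYN1 cortex tumors were highest in it, and 14 of them exceeded each of the other normal hippocampus arrays by more than 1 on the log2 scale. The mean level of those 20 genes was 8.65 on that array, against 6.82 to 7.12 on the other normal hippocampus arrays and 6.52 to 7.16 on normal cortex. Dynap, for example, read 10.15 there, against 6.19 to 6.96 on the others. These 20 genes were chosen after their values were seen. The neuron marker mean of the same array, 11.83, lay inside the range of normal hippocampus, 11.59 to 11.85. Values without these arrays are given where they change a call or bear most on a value, and for the other called members in the next sentences. Without the 4 tumor arrays, Jag1, Notch1, Notch2 and Hes5 in GFAP cortex tumors differed from normal cortex by 2.45, 1.05, 1.79 and -0.54, and Hes1, Jag2 and Hes5 in GFAP hippocampus tumors differed from normal hippocampus by 1.21, -0.70 and -0.78, all called by limma as with them. Without normal hippocampus 3, Jag1 in SVZ tumors differed by 2.48 (limma adjusted p = 0.0057), Notch1 in GFAP hippocampus tumors by 0.75 (limma adjusted p = 0.0482) and Hes5 in NES hippocampus tumors by -0.41 (limma adjusted p = 0.0459).

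**Figure D1:**
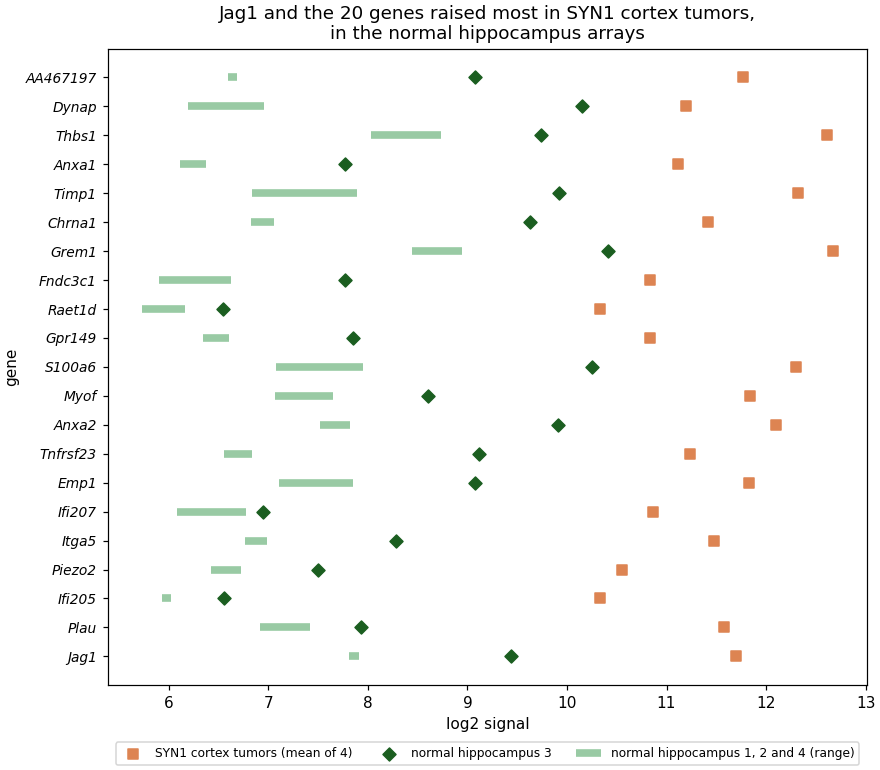
Log2 signal (horizontal axis) of Jag1 and the 20 genes raised most in SYN1 cortex tumors (rows). Squares are SYN1 cortex tumor means of 4 arrays, diamonds the array labelled normal hippocampus 3, and bars the range of the other normal hippocampus arrays: every diamond lies to the right of its bar, and Jag1 is at 9.44 against a bar from 7.81 to 7.91.

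The levels of several cell type markers differed between tumors and normal tissue. The mean level of 12 neuron markers was 8.13 to 11.32 in GFAP cortex tumors, 8.93 to 9.84 in SYN1 cortex tumors, 9.35 to 11.02 in GFAP hippocampus tumors, 10.48 to 11.67 in NES hippocampus tumors and 9.11 to 10.37 in SVZ tumors, against 11.88 to 12.10 in normal cortex and 11.59 to 11.85 in normal hippocampus. In bulk tissue, fewer cells of a type and less RNA per cell cannot be told apart. Of the 12 astrocyte markers, 0, 1, 1, 0 and 0 rose and 2, 6, 1, 0 and 7 fell in GFAP cortex, SYN1 cortex, GFAP hippocampus, NES hippocampus and SVZ tumors. In the same order, 2, 9, 8, 1 and 9 of 12 endothelial markers rose and 0 fell, 4, 2, 4, 1 and 2 of 12 mural markers rose and 1, 1, 2, 0 and 1 fell, and 8, 8, 9, 9 and 8 of 12 microglia and macrophage markers rose and 0 fell. Of 12 oligodendrocyte precursor markers, 0, 0, 1, 1 and 0 rose and 1, 3, 4, 0 and 7 fell, and of 10 oligodendrocyte markers 0 rose and 9, 10, 4, 0 and 9 fell. Over all genes, 9%, 18.2%, 16.1%, 5.69% and 16.2% were called higher and 18.8%, 20.5%, 25.2%, 2.86% and 21.4% lower in the same order. Some marker counts lie near or under these shares, such as mural rises in SYN1 cortex and SVZ tumors. So do the astrocyte falls in GFAP cortex and GFAP hippocampus tumors. Of 11 cell cycle genes, 9, 10, 11, 9 and 11 rose. Their mean lay between 7.79 and 10.21 on every tumor array, against 7.16 to 7.35 in normal tissue.

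Promoter sequence was at hand from RefSeq (GRCm38.p6) for 8 of the 10 genes. The 250 bases before the transcript start that the promoter table uses are shown for Hes5 and Jag1 because these genes moved in opposite directions in the tumors. Capitals mark the letters GTGGGAA, the core of the motif bound by RBPJ, or TTCCCAC where it lies on the other strand. Both run 5′ to 3′ on the strand of the gene, Hes5 from chr4:154960673-154960922 (plus strand) and Jag1 from chr2:137116521-137116770 (minus strand). For Hes5 that start lies inside the gene interval given below, which begins further upstream.
Hes5: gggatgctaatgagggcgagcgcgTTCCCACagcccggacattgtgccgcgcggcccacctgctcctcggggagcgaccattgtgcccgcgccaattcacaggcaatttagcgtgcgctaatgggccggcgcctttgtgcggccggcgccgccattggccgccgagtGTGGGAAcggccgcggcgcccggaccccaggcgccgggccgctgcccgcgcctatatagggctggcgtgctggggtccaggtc
Jag1: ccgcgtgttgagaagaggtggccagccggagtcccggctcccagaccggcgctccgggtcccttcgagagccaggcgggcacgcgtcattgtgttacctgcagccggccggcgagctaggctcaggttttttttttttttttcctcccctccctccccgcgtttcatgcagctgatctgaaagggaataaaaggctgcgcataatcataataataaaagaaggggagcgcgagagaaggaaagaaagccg
Hes5 held 2 matches, ending 220 and 77 bases before the start, and Jag1 held none. No other promoter among the 8 genes held one. Over all 32851 promoters of the same table, 5.42% held at least 1 match and 0.161% held 2 or more. A match describes these letters only, and none in this window says nothing of RBPJ.

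Across all comparisons with normal tissue, the ligand Jag1, the receptors Notch1 and Notch2 and the target Hes1 were the members that rose, joined by Dll1 in 1 comparison, and Jag2 and Hes5 were those that fell. Calls were made at a limma adjusted p under 0.05, with Benjamini-Hochberg adjustment over all 19938 genes. In GFAP cortex tumors, 3 members rose and 1 fell, 4 of 10, where 27.8% of all genes were called, 9% as higher and 18.8% as lower. In SYN1 cortex tumors, 5 rose and 2 fell, 7 of 10, where 38.7% of all genes were called, 18.2% as higher and 20.5% as lower. In GFAP hippocampus tumors, 4 rose and 2 fell, 6 of 10, where 41.4% were called, 16.1% as higher and 25.2% as lower. In NES hippocampus tumors, 0 rose and Hes5 fell, 1 of 10 by limma, where 8.56% of all genes were called, 5.69% as higher and 2.86% as lower. There 2 members had an unadjusted p under 0.05, a limit for which the share of all genes is not given here. In SVZ tumors against both normal tissues, 4 rose and 2 fell, 6 of 10, where 37.6% were called, 16.2% as higher and 21.4% as lower. The share called in NES hippocampus tumors was near that of all genes, and in the other groups it was above it. With 10 members, chosen with earlier results of these data known, whether those shares exceed that of all genes was not tested. Members whose tumor and normal ranges did not overlap numbered 5 of 10 in GFAP cortex tumors (37.1% of all genes), 8 of 10 in SYN1 cortex tumors (49%), 3 of 10 in GFAP hippocampus tumors (26.2%), 6 of 10 in NES hippocampus tumors (24.6%) and 6 of 10 in SVZ tumors (42.3%). The median log2 difference of the members was 0.36, 0.49, 0.03, 0.29 and 0.25 in that order, against -0.10, -0.04, -0.08, -0.045 and -0.003 over all genes.

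**Figure D2:**
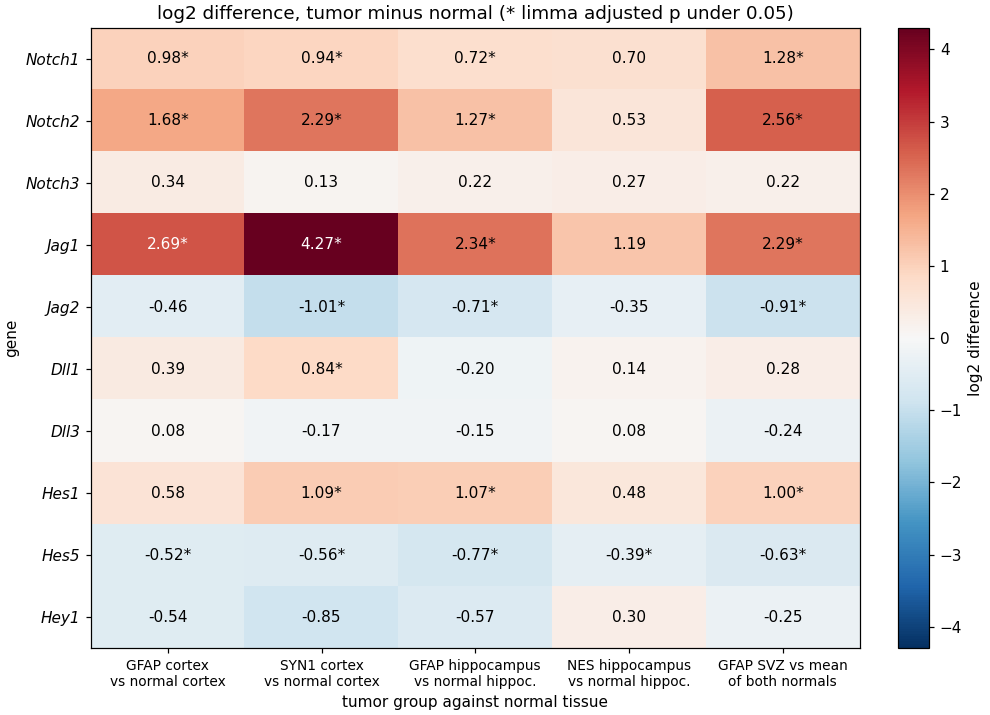
Log2 difference, tumor minus normal tissue (colour and number), of the 10 genes (rows) in the 5 tumor groups (columns). Asterisks mark a limma adjusted p under 0.05: Jag1 and Notch2 have the largest positive differences, up to 4.27 and 2.56, and Hes5 is the only gene with an asterisk in every column.

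Of the ligands, Jag1 (chr2:137081451-137116520), which encodes a Jagged ligand on the signal-sending cell, showed the widest range. It read 10.82, 9.18, 9.93 and 10.52 in GFAP cortex tumors and 10.71, 12.18, 12.49 and 11.40 in SYN1 cortex tumors, against 7.21, 7.47, 7.49 and 7.52 in normal cortex. Every cortex tumor lay above every normal cortex array. The log2 difference was 2.69 ± 0.72 (SE; limma adjusted p = 0.00622), a 6.46-fold higher signal, for GFAP cortex tumors and 4.27 ± 0.72 (limma adjusted p = 3.514e-05), or 19.3-fold, in SYN1 cortex tumors.

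In the hippocampus Jag1 spread more. The 7 GFAP hippocampus tumors ran from 8.55 through a median of 10.98 to 12.10, and the NES hippocampus tumors read 10.80, 9.99, 8.49 and 8.51, against 7.81, 7.89, 9.44 and 7.91 in normal hippocampus. The high normal value is that of array 3, and it lies above 2 of the 7 GFAP hippocampus tumors and 2 of the 4 NES hippocampus tumors. Jag1 rose in GFAP hippocampus tumors, by 2.34 ± 0.63 (limma adjusted p = 0.00457), and by 2.73 (limma adjusted p = 0.00339) without normal hippocampus 3. Without the 4 tumor arrays that stand apart the difference was 2.91, while over GFAP hippocampus tumors 5 to 7 alone it was 1.58 with a limma adjusted p of 0.0813. In NES hippocampus tumors the difference was 1.19 ± 0.72 (limma adjusted p = 0.349), and 1.58 (limma adjusted p = 0.26) without normal hippocampus 3, so it was not called either way. It was called with array weights (1.32, limma adjusted p = 0.0171). SVZ tumors read 10.21, 11.68 and 8.51, a difference of 2.29 ± 0.69 (limma adjusted p = 0.00909). That call rested on SVZ tumor 2, without which it was 1.52 (limma adjusted p = 0.144). Ordered by mean, Jag1 ran SYN1 cortex, GFAP hippocampus, GFAP SVZ, GFAP cortex and NES hippocampus tumors, then normal hippocampus and normal cortex, and the ranges of all neighbouring tumor groups overlapped.

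Jag2 (chr12:112907803-112929812), the other Jagged ligand, went the other way. It read 7.21, 7.48, 7.33 and 6.97 in SYN1 cortex tumors and 8.27, 8.03, 7.46 and 7.43 in GFAP cortex tumors, against 8.17, 8.37, 8.18 and 8.32 in normal cortex. All SYN1 arrays lay below normal cortex, while the highest GFAP cortex array, tumor 1, lay inside its range. Jag2 fell in SYN1 cortex tumors, with a log2 difference of -1.01 ± 0.19 (limma adjusted p = 0.000106). In GFAP cortex tumors the difference was -0.46 ± 0.19 (limma adjusted p = 0.0673), and it was called, at -0.62 (limma adjusted p = 0.00347), without the 4 arrays that stand apart.

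In GFAP hippocampus tumors Jag2 ran from 6.79 through a median of 7.34 to 7.90, below 8.07, 8.09, 8.01 and 8.12 in normal hippocampus. The groups did not overlap, and the difference was -0.71 ± 0.17 (limma adjusted p = 0.00133). It read 7.33, 7.76, 7.91 and 7.89 in NES hippocampus tumors, also below every normal hippocampus array, with a difference of -0.35 ± 0.19 that was not called (limma adjusted p = 0.282). With array weights that difference was called (-0.31, limma adjusted p = 0.0113). SVZ tumors, at 7.07, 7.20 and 7.50, lay below all normal arrays by 0.91 on average (difference -0.91 ± 0.18, limma adjusted p = 0.000222). Over the whole series, 20 of 22 tumor arrays lay below every normal array for Jag2. After centring or quantile normalization 20 still did, and 1 lay above every normal array. The share of all genes with such counts is not given here, nor for the like counts of Dll1 and Notch1 below.

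Dll1 (chr17:15367354-15376932), a Delta-like ligand that activates Notch receptors, was called in SYN1 cortex tumors only, and whether those differ in it from other tumors was not shown: SYN1 against GFAP cortex tumors gave 0.45 ± 0.26 (limma adjusted p = 0.412). It read 7.88, 8.04, 8.01 and 8.33 in SYN1 cortex tumors, against 7.13, 7.18, 7.32 and 7.26 in normal cortex. The groups did not overlap, and the difference was 0.84 ± 0.26 (limma adjusted p = 0.0106). In the other tumor groups single arrays stood high, such as 8.12 on NES hippocampus tumor 1 and 8.27 on SVZ tumor 3, and the lowest tumor array of all, at 6.58, was a GFAP hippocampus tumor. Over the series, 11 of 22 tumor arrays lay above every normal array and 5 lay below every one. Dll3 (chr7:28293555-28301785), a Delta-like protein known to act inside the same cell on Notch rather than as an activating ligand, was the dimmest member, with a mean signal above 29.1% of genes. Its 5 log2 differences ran from -0.24 to 0.08 and none was called. Its signal lay between 6.37 and 7.40 on all tumor arrays and between 6.61 and 6.88 on normal arrays.

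**Figure D3:**
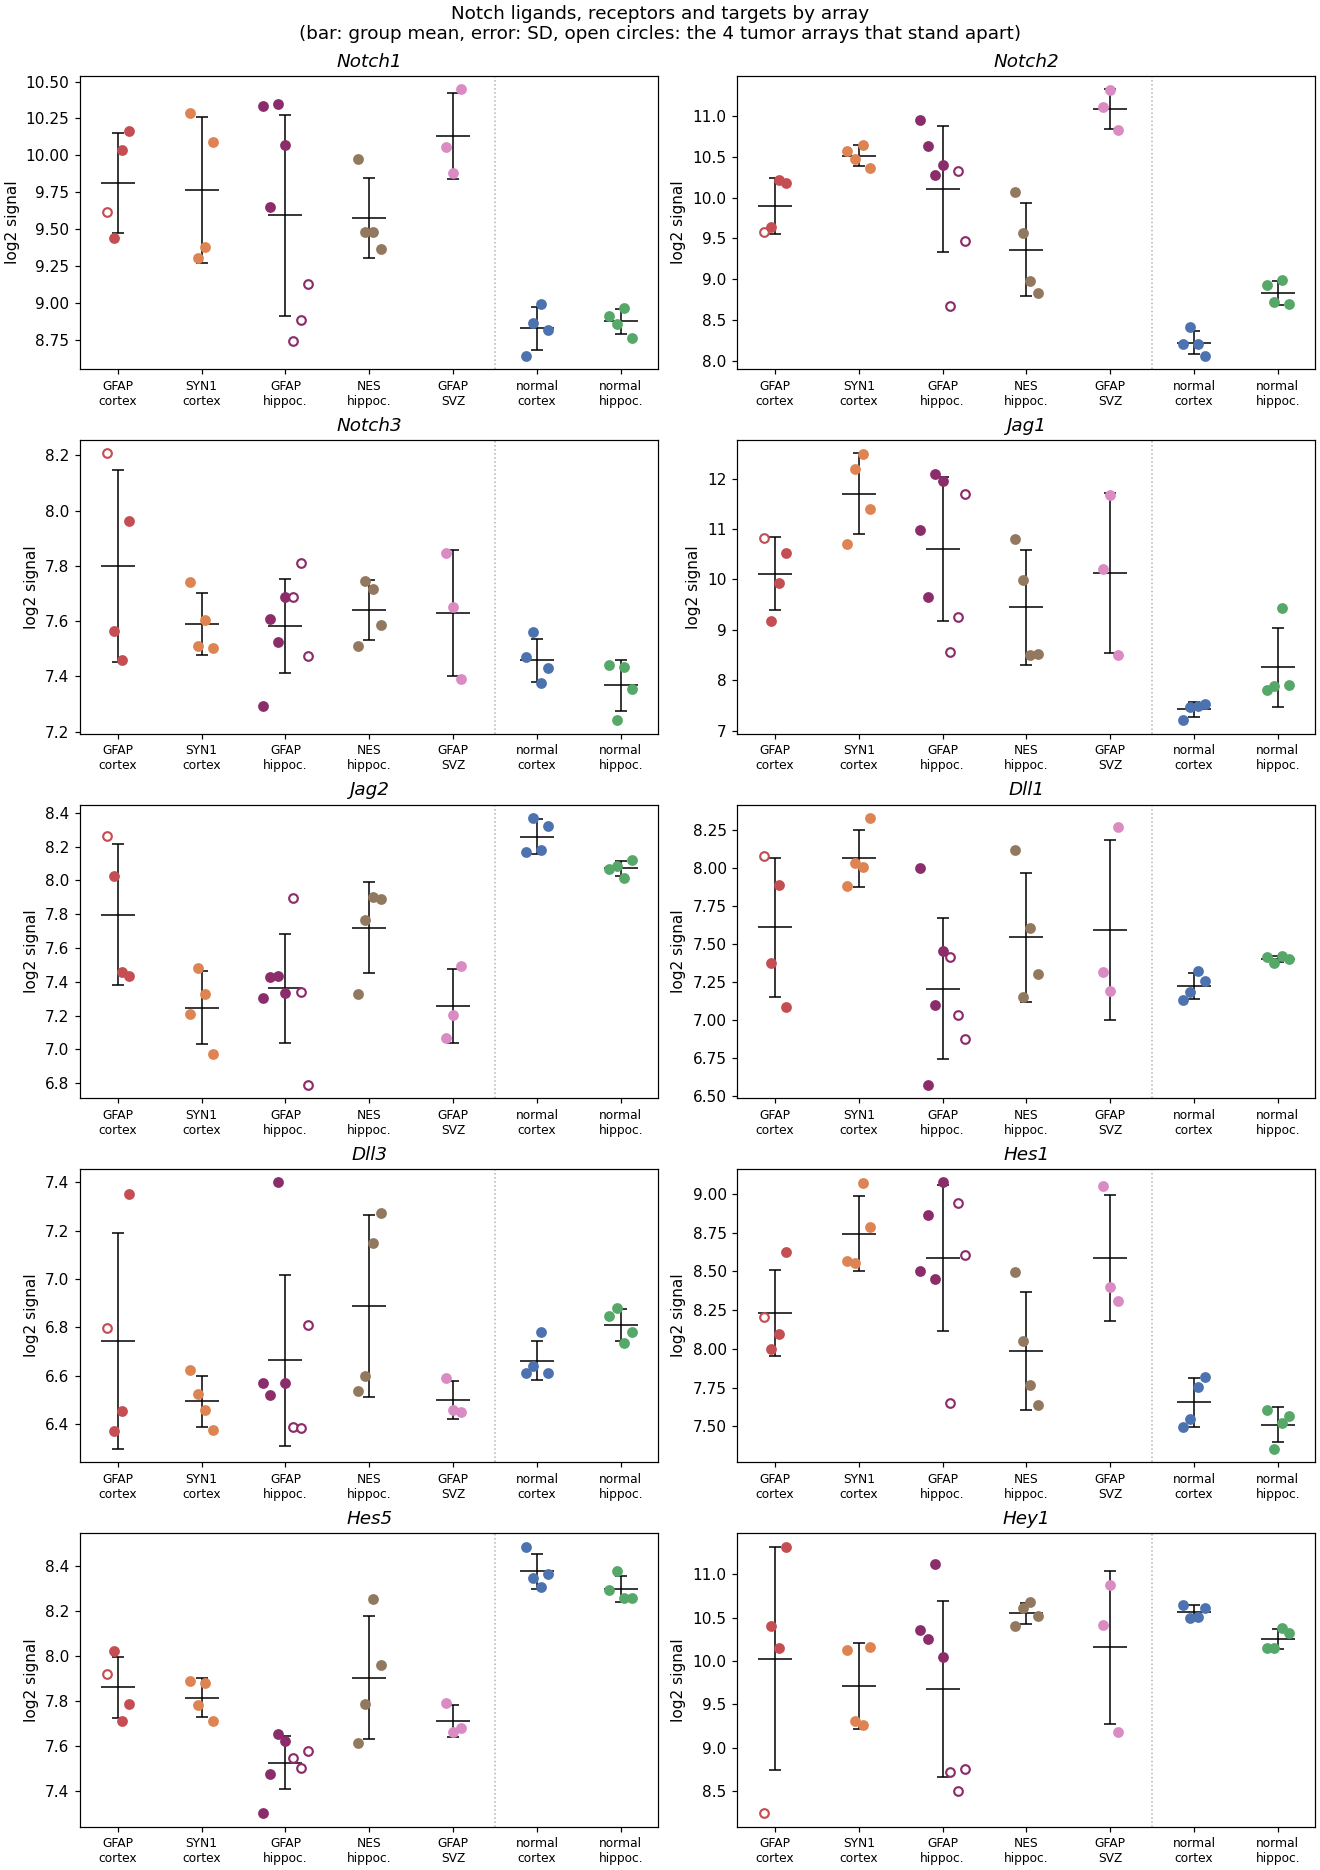
Log2 signal (vertical axes, 1 scale per gene) of each of the 10 genes on all 30 arrays by group (horizontal axes), with group mean and SD. Tumor groups are left of the dotted line and normal tissues right of it, and open circles are the 4 tumor arrays that stand apart: Hey1 is lowest on exactly those 4 arrays, at 8.24 to 8.75.

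Among the receptors, Notch2 (chr3:98013538-98150367), a receptor that many glial and progenitor cells carry, differed most. It read 9.58, 9.64, 10.21 and 10.18 in GFAP cortex tumors and 10.57, 10.47, 10.65 and 10.36 in SYN1 cortex tumors, against 8.21, 8.41, 8.21 and 8.06 in normal cortex. Both tumor groups lay wholly above normal cortex. Notch2 rose by 1.68 ± 0.32 (limma adjusted p = 0.000513), or 3.20-fold, in GFAP cortex tumors and by 2.29 ± 0.32 (limma adjusted p = 4.674e-06), or 4.89-fold, in SYN1 cortex tumors.

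SVZ tumors had the highest mean Notch2 level, with arrays at 11.11, 11.32 and 10.82. They exceeded every normal array, and the difference from both normal tissues was 2.56 ± 0.31 (limma adjusted p = 1.309e-06), or 5.88-fold. The 7 GFAP hippocampus tumors ran from 8.67 through a median of 10.32 to 10.95, and NES hippocampus tumors read 10.07, 9.56, 8.98 and 8.84, against 8.93, 8.72, 8.98 and 8.70 in normal hippocampus. GFAP hippocampus tumor 5 lay below all normal hippocampus arrays, and 2 of the NES hippocampus tumors lay within or at the edge of their range. Notch2 rose in GFAP hippocampus tumors by 1.27 ± 0.29 (limma adjusted p = 0.000923). Over tumors 5 to 7 alone the difference was 0.65 with a limma adjusted p of 0.0693, and without the arrays that stand apart it was 1.73. In NES hippocampus tumors it was 0.53 ± 0.32 (limma adjusted p = 0.356) and was not called, while with array weights it was called (0.60, limma adjusted p = 0.00242). Ordered by mean, the SVZ and SYN1 cortex tumors led and normal hippocampus and normal cortex came last, and the SVZ range did not overlap that of SYN1 cortex tumors, although the difference was not called (limma adjusted p = 0.903).

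Notch1 (chr2:26457902-26503822), the receptor best known from neural stem cells, moved less. It read 9.62, 9.44, 10.03 and 10.16 in GFAP cortex tumors and 10.29, 9.31, 9.38 and 10.09 in SYN1 cortex tumors, against 8.64, 8.87, 8.99 and 8.82 in normal cortex. The cortex tumors did not overlap normal cortex. Notch1 rose by 0.98 ± 0.29 (limma adjusted p = 0.0134) for the GFAP cortex tumors and by 0.94 ± 0.29 (limma adjusted p = 0.0125) in SYN1 cortex tumors, and the second call was lost without SYN1 cortex tumor 1 (difference 0.76, limma adjusted p = 0.0592). SVZ tumors, at 10.05, 9.88 and 10.45, were higher by 1.28 ± 0.28 (limma adjusted p = 0.000704).

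In the hippocampus the Notch1 call rested on which tumors were counted. GFAP hippocampus tumors 1 to 4 read 10.33, 9.65, 10.35 and 10.07 and tumors 5 to 7 read 8.74, 8.88 and 9.13, against 8.92, 8.86, 8.97 and 8.77 in normal hippocampus. As deposited, the first 4 lay above all normal hippocampus arrays, and of the last 3 only tumor 7 did. The difference over all 7 was 0.72 ± 0.26 (limma adjusted p = 0.0293), over tumors 5 to 7 alone 0.04 (limma adjusted p = 0.892), and without the arrays that stand apart 1.22 (limma adjusted p = 4.586e-05). Leaving out any 1 of GFAP hippocampus tumors 1, 3 and 4 or of normal hippocampus arrays 1, 2 and 4 also lost the call, with limma adjusted p from 0.0542 to 0.0725, as did keeping only GFAP hippocampus tumors and normal hippocampus in the fit (limma adjusted p = 0.0993). NES hippocampus tumors read 9.98, 9.48, 9.48 and 9.37, all above normal hippocampus, with a difference of 0.70 ± 0.29 that was not called in the fit of all 30 arrays (limma adjusted p = 0.155) and was called with only these groups in the fit (limma adjusted p = 0.0104). Over the series, 20 of 22 tumor arrays as deposited lay above every normal array for Notch1. That count depended on scaling: it was 21 after centring and 22 after quantile normalization. The lowest tumor array then read 9.177 after quantile normalization, against a highest normal array of 8.942. The low position of GFAP hippocampus tumors 5 to 7 thus depended in part on scaling, and their difference alone after scaling is not given here.

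Notch3 (chr17:32120820-32166896), a receptor known from vascular mural cells, was called in no group. Its differences ran from 0.13 to 0.34, with the largest in GFAP cortex tumors (0.34 ± 0.14, limma adjusted p = 0.0634), where the arrays read 8.21, 7.57, 7.46 and 7.96, against 7.47, 7.56, 7.38 and 7.43 in normal cortex. The highest of them was tumor 1, and the groups overlapped. The mean of 12 mural cell markers was 8.04 to 8.75 in GFAP cortex tumors, against 7.72 to 7.92 in normal cortex, and its part in the Notch3 levels was not tested.

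The targets did not move together. Hes1 (chr16:30065357-30067796), a repressor of proneural genes, was higher and Hes5 (chr4:154960626-154962372), a related repressor much used as a readout of Notch activity in neural stem cells, was lower in the same tumors. Hes1 read 8.57, 8.55, 9.07 and 8.78 in SYN1 cortex tumors and 8.21, 7.996, 8.10 and 8.63 in GFAP cortex tumors, against 7.50, 7.55, 7.75 and 7.82 in normal cortex. No cortex tumor overlapped normal cortex. Hes1 rose by 1.09 ± 0.23 (limma adjusted p = 0.000465), or 2.13-fold, in SYN1 cortex tumors, while the 0.58 ± 0.23 of GFAP cortex tumors was not called (limma adjusted p = 0.0661). It was called without the arrays that stand apart (0.59, limma adjusted p = 0.0353), with only these groups in the fit (limma adjusted p = 0.0288), with array weights (0.57, limma adjusted p = 0.00169) and with the replicate block (limma adjusted p = 0.0235).

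Hes1 in GFAP hippocampus tumors ran from 7.65 through a median of 8.61 to 9.08, against 7.61, 7.35, 7.52 and 7.57 in normal hippocampus. The groups did not overlap, with tumor 5 only just above the highest normal array. Hes1 rose there by 1.07 ± 0.21 (limma adjusted p = 0.000193). SVZ tumors read 9.05, 8.40 and 8.31 and were higher than both normal tissues by 1.00 ± 0.22 (limma adjusted p = 0.000719). NES hippocampus tumors read 8.50, 8.05, 7.76 and 7.64, above normal hippocampus on each array, but the difference of 0.48 ± 0.23 was not called (limma adjusted p = 0.229). It was called with array weights (0.46, limma adjusted p = 0.00668).

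Hes5 fell in all 5 tumor groups. It read 7.92, 8.02, 7.71 and 7.79 in GFAP cortex tumors and 7.89, 7.78, 7.88 and 7.71 in SYN1 cortex tumors, against 8.49, 8.35, 8.31 and 8.37 in normal cortex. It ran from 7.30 through a median of 7.55 to 7.65 in GFAP hippocampus tumors and read 7.61, 7.79, 8.25 and 7.96 in NES hippocampus tumors, against 8.29, 8.38, 8.26 and 8.26 in normal hippocampus. SVZ tumors read 7.79, 7.66 and 7.68. All 22 tumor arrays lay below all 8 normal arrays, a pattern that 7.30% of all genes showed in either direction, and NES hippocampus tumor 3 came within a few thousandths of the lowest normal array. After quantile normalization 21 of 22 tumor arrays lay below. The highest tumor array then read 8.415, against a lowest normal array of 8.207, and which tumor array that was is not given here.

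The Hes5 log2 differences were -0.52 ± 0.11 (limma adjusted p = 0.00122) for the GFAP cortex tumors and -0.56 ± 0.11 (limma adjusted p = 0.00019) in SYN1 cortex tumors. They were -0.77 ± 0.10 (limma adjusted p = 1.396e-06) in GFAP hippocampus tumors, -0.39 ± 0.11 (limma adjusted p = 0.0235) in NES hippocampus tumors and -0.63 ± 0.11 (limma adjusted p = 4.054e-05) in SVZ tumors. These are folds of 1.31 to 1.71 downward, small beside those of Jag1, on a scale where background compresses differences. The NES call was lost without NES hippocampus tumor 1 (-0.30, limma adjusted p = 0.162) or tumor 2 (-0.36, limma adjusted p = 0.0826), and without normal hippocampus array 1 (-0.40, limma adjusted p = 0.0542) or 2 (-0.37, limma adjusted p = 0.0738). With only NES tumors and normal hippocampus in the fit its limma adjusted p was 0.0813.

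Marker levels are given beside Hes5. The mean of 12 astrocyte markers was 9.03 to 9.88 in SYN1 cortex tumors, against 10.40 to 10.62 in normal cortex, and 9.25 to 10.94 in GFAP hippocampus tumors and 10.31 to 11.13 in NES hippocampus tumors, against 10.42 to 10.75 in normal hippocampus. In GFAP cortex tumors it was 7.82, 10.55, 10.70 and 10.16, and in SVZ tumors 9.05 to 10.08. The part of the astrocyte and neuron markers in the Hes5 and Jag2 levels was not tested. For Jag1 and Notch1 the mean of 12 endothelial markers was 8.79 to 8.87 in SYN1 cortex tumors, against 7.89 to 7.95 in normal cortex, and its part was likewise not tested.

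**Figure D4:**
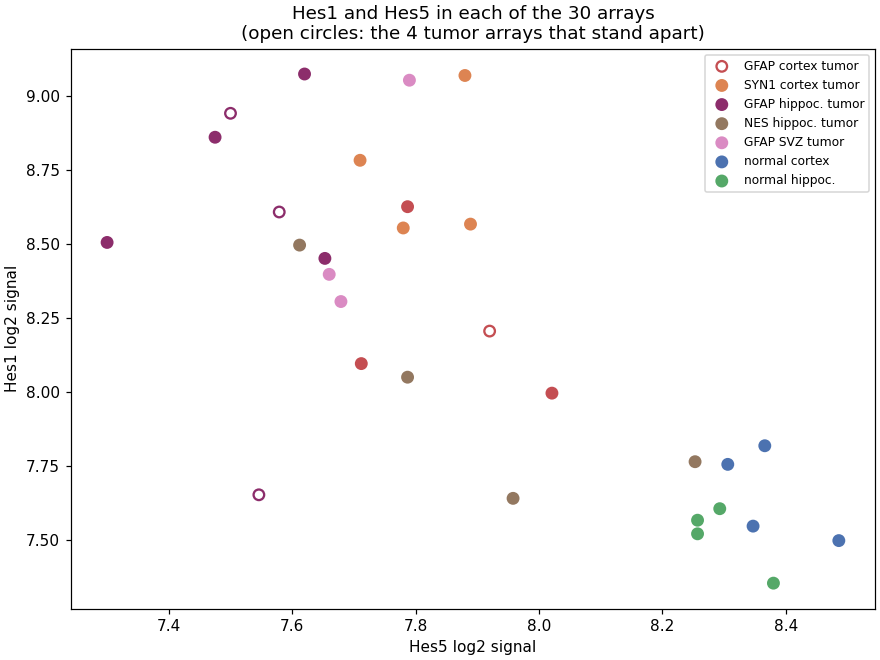
Hes1 log2 signal (vertical axis) against Hes5 log2 signal (horizontal axis) on each of the 30 arrays, coloured by group, with open circles for the 4 tumor arrays that stand apart. The normal arrays sit at high Hes5, 8.26 to 8.49, and low Hes1, 7.35 to 7.82, and the tumors at lower Hes5, with NES hippocampus tumor 3 next to the normal arrays.

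Hey1 (chr3:8663359-8667038), a Hes-related repressor, was called in no comparison with normal tissue. It read 8.24, 10.41, 10.15 and 11.31 in GFAP cortex tumors and 10.12, 9.31, 9.26 and 10.16 in SYN1 cortex tumors, against 10.65, 10.49, 10.50 and 10.61 in normal cortex. GFAP cortex tumors lay on both sides of normal cortex and SYN1 cortex tumors all below it, with differences of -0.54 ± 0.51 (limma adjusted p = 0.497) and -0.85 ± 0.51 (limma adjusted p = 0.211). With only SYN1 tumors and normal cortex in the fit the second was called (limma adjusted p = 0.00692).

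GFAP hippocampus tumors 1 to 4 read 10.36, 10.26, 11.12 and 10.05 for Hey1 and tumors 5 to 7 read 8.72, 8.49 and 8.75, against 10.15, 10.15, 10.38 and 10.33 in normal hippocampus. The 4 arrays that stand apart held the lowest Hey1 of all, 8.24 to 8.75, against 9.18 to 11.31 on the other 18 tumor arrays. After quantile normalization the lowest Hey1 was 8.82 over tumor arrays and 9.94 over normal arrays. Over tumors 5 to 7 alone Hey1 was lower than normal hippocampus by 1.60 (difference -1.60, limma adjusted p = 0.00595), and over the first 4 the difference was 0.19 in the fit without the arrays that stand apart (limma adjusted p = 0.599). The within-group SD of Hey1 was 0.89 over tumors, against 0.10 over normal tissues. That of Jag1 was 1.21 over tumors, against 0.56 over normal tissues.

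Between tumor groups few members differed. SYN1 against GFAP cortex tumors gave 0 of 10 limma calls, where 0.176% of all genes were called, and 3 members, Jag1, Jag2 and Hes1, had an unadjusted p under 0.05. The share of all genes under that unadjusted limit is not given for this or the later comparisons. Member counts under it therefore cannot be read as an excess. For Jag1 the difference was 1.58 ± 0.72 (limma adjusted p = 0.307), and for Jag2 -0.55 ± 0.19 (limma adjusted p = 0.198). The Notch2 ranges of the 2 cortex groups did not overlap, 10.36 to 10.65 in SYN1 tumors against 9.58 to 10.21 in GFAP tumors, which 7.58% of all genes also showed, and the difference was 0.61 ± 0.32 (limma adjusted p = 0.374).

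NES against GFAP hippocampus tumors gave 1 limma call of 10, Hes5, where 8.21% of all genes were called. Hes5 was higher in NES tumors by 0.38 ± 0.10 (limma adjusted p = 0.0249), although their lowest array, at 7.61, lay inside the GFAP range. Centring each array on its median moved the median difference of all genes in this comparison by -0.22, and the Hes5 difference was then 0.16 (limma adjusted p = 0.383); it was 0.14 (limma adjusted p = 0.498) after quantile normalization. The call was also lost without NES hippocampus tumor 2, 3 or 4 or without GFAP hippocampus tumor 6 or 7, with limma adjusted p from 0.0503 to 0.18. Notch2 and Hes1 were lower in NES tumors by -0.74 ± 0.29 (limma adjusted p = 0.0922) and -0.60 ± 0.21 (limma adjusted p = 0.0657). Without the arrays that stand apart both were called, at -1.20 (limma adjusted p = 0.00485) and -0.74 (limma adjusted p = 0.0141), and both were called after centring, at -0.96 (limma adjusted p = 0.0213) and -0.82 (limma adjusted p = 0.0167).

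GFAP hippocampus against GFAP cortex tumors gave 0 of 10 limma calls, where 2.68% of all genes were called, with Jag2 and Hes5 at an unadjusted p under 0.05. Hes5 did not overlap, 7.30 to 7.65 in hippocampus against 7.71 to 8.02 in cortex, as 1.64% of all genes did not, with a difference of -0.34 ± 0.10 (limma adjusted p = 0.0587). Tumors 1 to 4 of these groups deviate together by replicate number. With that number as a block, which leaves hippocampus tumors 5 to 7 without a partner, Notch2 was higher in the hippocampus by 0.66 (limma adjusted p = 0.0474), against 0.20 (limma adjusted p = 0.774) over all 7 hippocampus tumors. Over tumors 1 to 4 without the block the difference was the same 0.66 (limma adjusted p = 0.0463), so the larger value came with leaving out tumors 5 to 7.

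GFAP SVZ against GFAP cortex tumors gave 0 of 10 limma calls, where 0.00502% of all genes were called, with Notch2 and Jag2 at an unadjusted p under 0.05. Notch2 was higher in SVZ tumors by 1.18 ± 0.35 with ranges apart, as for 8.5% of all genes (limma adjusted p = 0.297), and by 1.07 (limma adjusted p = 0.0162) without GFAP cortex tumor 1 and GFAP hippocampus tumors 5 to 7. GFAP SVZ against GFAP hippocampus tumors gave 0 of 10 limma calls, where 0.316% were called, with Notch2 alone at an unadjusted p under 0.05 (0.98 ± 0.31, limma adjusted p = 0.147). The change from normal to GFAP tumor did not differ between hippocampus and cortex for any member by limma (0 of 10, with 0 at an unadjusted p under 0.05, where 0.838% of all genes were called).

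Normal hippocampus against normal cortex gave 0 of 10 limma calls, where 1.29% of all genes were called and 0 members had an unadjusted p under 0.05. That fit takes its spread from tumors too, where it was wider: for Hey1 0.89 within tumor groups against 0.10 within normal groups. Ranges did not overlap for 5 of 10 members, Notch2, Jag1, Jag2, Dll1 and Hey1, where 18.3% of all genes did not. Notch2 was 8.70 to 8.98 in normal hippocampus against 8.06 to 8.41 in normal cortex, ranges that did not overlap (18.3% of all genes did not), and the difference of 0.61 ± 0.32 was called with only these groups in the fit (limma adjusted p = 0.00038), not in the fit of all arrays (limma adjusted p = 1). Hey1 was lower in normal hippocampus and was likewise called with only these groups in the fit (difference -0.31, limma adjusted p = 0.0173). For Jag1 the difference was 0.84, and 0.45 without normal hippocampus 3.

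The wider pathway was read from 6 lists with 71 measured genes. Of these, 7 rose and 20 fell in GFAP cortex tumors, 14 rose and 22 fell in SYN1 cortex tumors, 11 rose and 23 fell in GFAP hippocampus tumors, 4 rose and 7 fell in NES hippocampus tumors, and 15 rose and 22 fell in SVZ tumors. Over all genes the shares called higher and lower were 9% and 18.8%, 18.2% and 20.5%, 16.1% and 25.2%, 5.69% and 2.86%, and 16.2% and 21.4% in the same order. Rises among the 71 genes were thus near the share of all genes in GFAP cortex, SYN1 cortex, GFAP hippocampus and NES hippocampus tumors. In SVZ tumors they were above it. Falls were above the share in every group, which was not tested. The median log2 differences of the 71 genes were -0.16, -0.07, -0.16, 0.036 and -0.05 in that order, near those of all genes given above.

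The proteases that cut Notch, or process it, were the list with most rises: of 9 measured, 3, 5, 5, 2 and 5 rose in GFAP cortex, SYN1 cortex, GFAP hippocampus, NES hippocampus and SVZ tumors, and 1, 2, 2, 1 and 2 fell. Adam17, an ADAM protease of the first cut, rose in all 5, by 1.45 ± 0.25, 1.97 ± 0.25, 1.69 ± 0.22, 1.32 ± 0.25 and 1.64 ± 0.24 (limma adjusted p at most 0.00117). Furin, which processes the Notch precursor, rose in all but NES hippocampus tumors, by 2.34 in SYN1 cortex tumors. The gamma-secretase subunits Aph1a and Aph1b moved apart, Aph1a higher by 1.06 and Aph1b lower at -1.17 in GFAP hippocampus tumors. Nicastrin (Ncstn), another subunit, rose by 1.22 in SYN1 cortex and 1.22 in SVZ tumors.

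The nuclear complex list held 16 measured genes, of which 2, 2, 3, 1 and 3 rose and 2, 1, 6, 0 and 4 fell in the same order. Rbpj, the DNA-binding partner of the Notch intracellular domain, rose in every group, by 1.27, 2.08, 1.72, 1.35 and 1.69 (limma adjusted p at most 0.015). The histone deacetylase gene Hdac1 rose in all but NES hippocampus tumors, by 1.64 in SYN1 cortex tumors, and the Groucho family corepressor gene Tle4 fell in the same 4, at -1.57 in SYN1 cortex tumors. Of 18 genes for glycosylation, ubiquitination and trafficking, 0, 2, 0, 0 and 2 rose and 11, 10, 9, 3 and 10 fell. Neurl1b, a Neuralized ubiquitin ligase that acts on Notch ligands, fell in all 5 groups, at -1.69, -2.57, -1.97, -1.33 and -2.59, and Fbxw7, a ubiquitin ligase subunit that marks the Notch intracellular domain for decay, fell at -1.74 in SYN1 cortex and -1.92 in SVZ tumors.

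**Figure D5:**
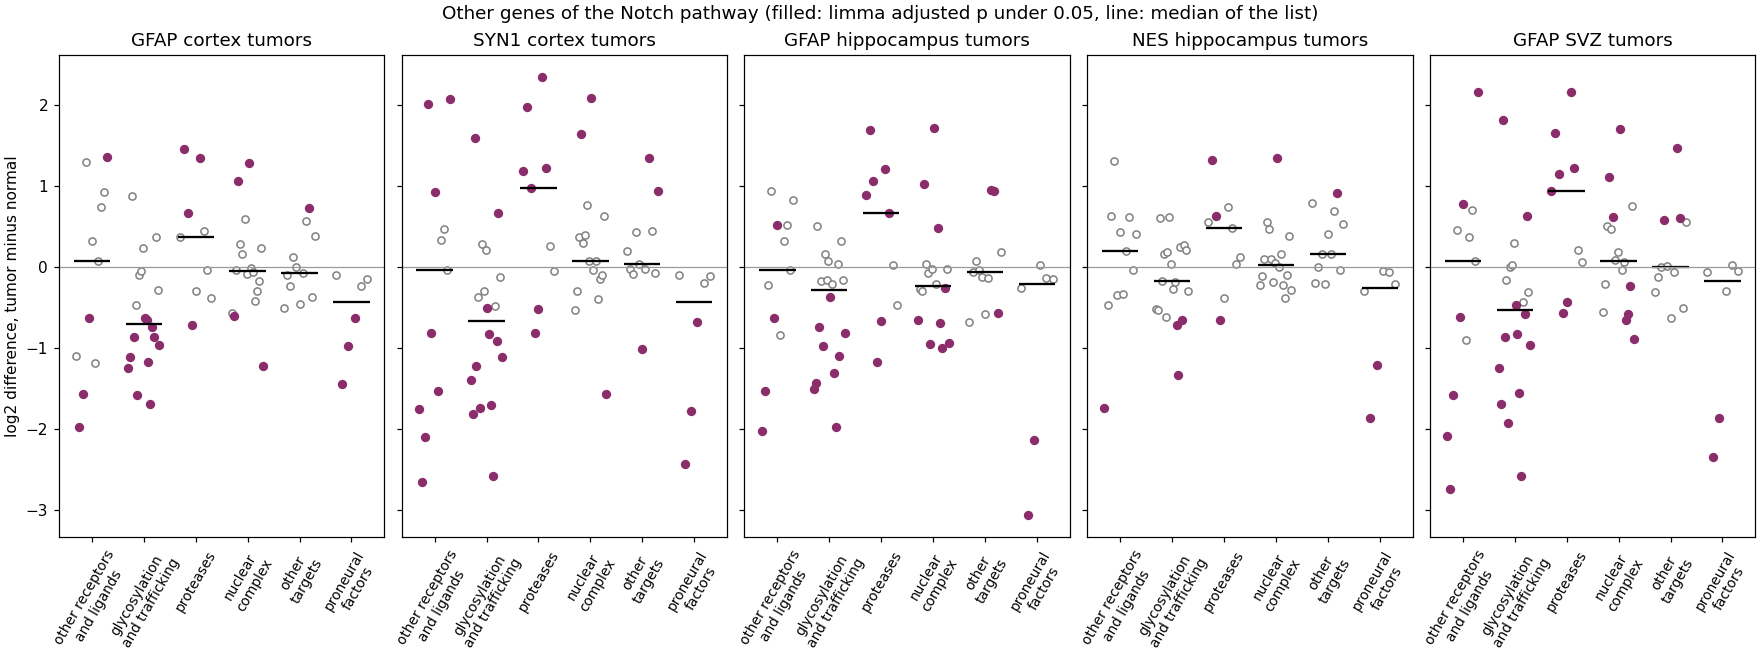
Log2 difference, tumor minus normal tissue (vertical axis), of 71 further Notch pathway genes in 6 lists (horizontal axis) for the 5 tumor groups (panels). Filled points have a limma adjusted p under 0.05 and lines are list medians: glycosylation and trafficking genes lie mostly below 0 and proteases mostly above it, and NES hippocampus tumors have the fewest filled points.

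Among 11 other receptors and ligands, 1, 3, 1, 0 and 2 rose and 3, 5, 3, 1 and 4 fell. Notch4, an endothelial Notch receptor, rose by 1.36 in GFAP cortex, 2.07 in SYN1 cortex and 2.16 in SVZ tumors, in which the endothelial marker mean was 8.15 to 8.74, 8.79 to 8.87 and 8.38 to 8.89, against 7.78 to 7.95 in normal tissues, and the part of that mean was not tested. Dlk1, a Delta-like protein without the usual Notch-binding domain, rose by 2.01 in SYN1 cortex tumors. The neuronal contactins Cntn1 and Cntn6, noncanonical Notch ligands, fell in GFAP and SYN1 cortex and SVZ tumors, at -2.65 and -2.09 in SYN1 cortex tumors, beside the lower neuron marker means given above. Of 11 other targets, 1, 2, 2, 1 and 3 rose and 0, 1, 1, 0 and 0 fell. Id1 rose by 1.35 in SYN1 cortex, 0.95 in GFAP hippocampus and 1.47 in SVZ tumors, Hey2 fell at -1.01 in SYN1 cortex tumors, and Nrarp, a feedback inhibitor induced by Notch, fell at -0.57 in GFAP hippocampus tumors.

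Of 6 measured proneural factors, the kind of gene that Hes proteins repress, none rose and 3, 3, 2, 2 and 2 fell. Neurod1, a factor of newborn granule neurons, fell in every group, at -1.44, -2.44, -3.06, -1.87 and -2.35 (limma adjusted p at most 0.000298), and Neurod2 fell in every group too, from -2.14 in GFAP hippocampus tumors to -0.97 in GFAP cortex tumors. Both are also genes of mature neurons. Of 12 neuron markers, 8, 10, 8, 0 and 10 fell in the same order and none rose. In NES hippocampus tumors, with no neuron marker called, their median log2 difference was -0.63, and 3 of 4 arrays, at 10.48, 11.44 and 11.21, had a neuron marker mean below every normal hippocampus array. The part of the neuron markers in these levels was not tested.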

How the data were processed

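Total RNA was extracted with Trizol and amplified with the Ambion WT expression kit, per the labels' protocols, and hybridised to 30 arrays. The values are the log2 signal per probe set as deposited by the authors. Affymetrix Power Tools, MAS5 and RMA are named, per the submitters' processing notes, and whether arrays were normalized to each other is not given in the sources used here.

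Of 35556 probe sets, 21789 name 1 gene symbol (21698 matched RefSeq, GRCm38.p6), 1621 name several and 12146 none. The brightest single-symbol probe set stood for each of 19938 genes, and 999 genes had several. All 7 group means were fitted in 1 model with limma 3.58.1 in R 4.3.3 (lmFit, eBayes, two-sided, Benjamini-Hochberg adjustment over all genes, threshold 0.05), which was tested on simulated data. The number of arrays limits the precision.

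The members, the gene lists and the markers were chosen with earlier results of these data known. All 10 members were described, and from each of the 6 wider lists up to 4 called genes with the largest difference per comparison could be named. The fall of Tle4 in GFAP hippocampus tumors lies beyond that number. Some genes of these lists are not reported here. Alternatives changed the scaling, the filter on dim genes, the probe set choice, the variance model, the arrays in the fit, array weights and a replicate block. GFAP cortex and GFAP hippocampus tumors 1 to 4 deviated from their group means together by replicate number (correlation 0.277 to 0.306 in all 4 pairs). SYN1 cortex tumors and normal hippocampus did so more weakly (0.107 to 0.176). The replicate block was fitted over all groups, also those whose numbers did not go together. Examples are GFAP cortex tumors with normal cortex (-0.211 to 0.057) and NES hippocampus tumors with normal hippocampus (-0.187 to 0.042). The block comes from the titles' numbers, not from a stated shared day or litter.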

Additional observations from a re-analysis of the deposited data

Results flagged for a closer look

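In 4 of 60 gene-by-group sets of 4 to 7 arrays, 1 array lay far from the others by Dixon's criterion, which chance meets in about 1 in 20 groups. Jag1 read 9.436 on normal hippocampus 3, against 7.809 to 7.909 on the other normal hippocampus arrays. Jag1 also read 7.208 on normal cortex 1, against 7.471 to 7.524 on the other normal cortex arrays. Dll3 read 7.4 on GFAP hippocampus tumor 3, against 6.386 to 6.811 on the other tumors of that group. Dll3 read 6.782 on normal cortex 3, against 6.613 to 6.639 on the other normal cortex arrays.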

How the results depend on the processing

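The number of members called stayed within 1.5 times its value for GFAP cortex, SYN1 cortex, GFAP hippocampus and SVZ tumors against normal tissue under every alternative run, and leaving out 1 array at a time gave 4 to 6, 6 to 7, 5 to 6 and 5 to 6. With GFAP hippocampus tumors 5 to 7 only, however, the calls against normal hippocampus were 1 higher and 3 lower, where all 7 tumors gave 4 higher and 2 lower. For NES hippocampus tumors against normal hippocampus, 1 member was called, against 7 with array weights, 2 with the replicate block and 0 to 1 with 1 array left out. The 7 were Notch1, Notch2, Notch3, Jag1 and Hes1 as higher and Jag2 and Hes5 as lower. Array weights called 38.7% of all genes in that comparison. For NES against GFAP hippocampus tumors, 1 was called, against 2 after centring, 2 after quantile normalization, 0 with only these groups in the fit, 4 with array weights, 3 with the replicate block, 3 without the 4 arrays that stand apart, 3 with GFAP tumors 1 to 4 only, 3 with tumors 5 to 7 only and 0 to 3 with 1 array left out. Notch1 was called higher in NES tumors there, at 0.66 (limma adjusted p = 0.023), with GFAP tumors 5 to 7 only. With all GFAP tumors it showed no difference (-0.02, limma adjusted p = 0.973). The use of tumors 5 to 7 alone was chosen after seeing the data, and the cause was not tested. GFAP hippocampus against GFAP cortex tumors gave 0 calls, against 1 with the replicate block, which leaves out tumors 5 to 7 (Notch2), 1 with tumors 1 to 4 only, 3 with tumors 5 to 7 only and 0 to 1 with 1 array left out. SVZ against GFAP cortex tumors gave 0, against 2 with array weights, 1 with the replicate block and 1 without the arrays that stand apart, and SVZ against GFAP hippocampus tumors gave 0, against 1 with array weights and 3 with tumors 5 to 7 only. Normal hippocampus against normal cortex gave 0, against 2 with only these groups and 1 with array weights. The test of region in the GFAP tumor change gave 0, against 1 with tumors 5 to 7 only. SYN1 against GFAP cortex tumors stayed at 0 throughout. Without normal hippocampus 3, no count of members called changed. Of 120 single-gene results, the replicate block kept 113 on their side of the threshold, centring 117 and array weights 103, and the filter on dim genes kept all 108 it could test. The counts over all genes depended on the setting. Array weights called 10610 genes for GFAP cortex, 7723 for NES hippocampus and 11488 for SVZ tumors against normal tissue, where 5536, 1706 and 7504 were called without them. Over all settings, SYN1 against GFAP cortex tumors had 4 to 2655 calls (35 in the reported fit, the most without the 4 arrays that stand apart), NES against GFAP hippocampus 0 to 4715 (1637), GFAP hippocampus against cortex 0 to 2090 (534, the most likewise without those arrays), SVZ against GFAP cortex 0 to 5173 (1), SVZ against GFAP hippocampus 0 to 528 (63), normal hippocampus against cortex 224 to 2768 (257, the most with only these groups in the fit) and the test of region 140 to 1696 (167). The percent of called genes that were higher depended on scaling. It was 32.4 as deposited, 30.9 centred and 46.5 after quantile normalization for GFAP cortex tumors, 66.5, 39.5 and 55.7 for NES hippocampus tumors, 74.5, 32.5 and 41.1 for NES against GFAP hippocampus, 83.5, 94.9 and 60.3 for GFAP hippocampus against cortex, 100, 88.7 and 51.7 for SVZ against GFAP cortex, 47.6, 52.8 and 58.6 for SVZ against GFAP hippocampus, and 40.7, 56 and 32.2 for the test of region. Groups of 3 to 7 arrays, unknown scaling between arrays and background in dim probe sets limit these values.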

Other observations

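The genes whose 7 group means were most like those of a member were sought for the members whose group means spanned at least 1 on the log2 scale, by the root mean square difference of centred means. For Jag1 they were Piezo2 (0.214), a mechanosensitive channel gene, Gpr149 (0.258) and Ptgr1 (0.261). For Notch2 they were Sgms2 (0.18), Frk (0.182) and Agpat2 (0.185). For Notch1 they were Il6ra (0.084), Tmem140 (0.091) and Ecscr (0.093). For Jag2 they were Shc2 (0.056), Dact1 (0.066) and Pnpla3 (0.069). For Hes1 they were Pear1 (0.026), Kansl2 (0.048) and Flii (0.05). These are descriptions over 7 groups, with no test. The promoters of Hes7 and Hey2, related repressor genes outside the 10 members, each held 1 match to GTGGGAA on the opposite strand. In all, 2 of 7 promoters of other targets with a RefSeq entry held a match, against 5.42% of all promoters.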
